A study of Mus musculus with 4 samples.

Results

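The genes of MHC class I presentation were examined in alveolar macrophages (AM) of WT and *Trem-2*-/- mice. A gene was included when a probe set carried 1 symbol that was *H2-K1*, *H2-D1* or *H2-L* or began with H2-Q, H2-T or H2-M. To these were added *B2m*, *Tap1*, *Tap2*, *Tapbp*, *Psmb8*, *Psmb9*, *Psmb10*, *Erap1*, *Nlrc5*, *Cd1d1* and *Mr1*. This gave 29 of the 19946 genes tested, of which 18 were heavy chain genes (4 H2-Q, 2 H2-T and 12 H2-M) and 11 served assembly, regulation or class I-like presentation. TREM-2 is a myeloid surface receptor that signals through the adaptor DAP12. The study profiled resting AM, the resident phagocytes of the airspaces, to ask which transcripts depend on it. AM were washed out of the lungs of untreated mice aged 8 to 10 weeks. The 2 WT arrays carried RNA from C57/Blk6 mice, and the 2 *Trem-2*-/- arrays RNA from mice whose mutation was backcrossed 10 times to C57/Blk6. Every array held RNA from pooled mice, and WT mice had been purchased while both genotypes were bred in the same facility. The mutation is carried by every cell of the *Trem-2*-/- mice, and the strain of the targeted stem cells is not given in the sources used here.

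MHC class I molecules pair a polymorphic heavy chain with the light chain beta-2-microglobulin and show peptides from inside the cell to CD8+ T cells. Peptides are cut by the proteasome, pumped into the endoplasmic reticulum by the TAP transporter, trimmed, and loaded with the help of tapasin. The classical heavy chains of C57BL/6 mice are H2-K and H2-D, whereas the nonclassical Q, T and M genes vary far less between individuals and include specialised forms that present formylated peptides or engage other lymphocyte receptors. All heavy chain genes lie in the MHC on chromosome 17, the chromosome that also carries *Trem2*.

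Each array gave 1 log2 value per probe set after normalization by the robust multi-array average (RMA). The quartiles of the 4 arrays lay between 4.39 and 4.40 at the lower end and between 8.13 and 8.17 at the upper end. Over all probe sets the arrays correlated with r of 0.994 within WT, 0.995 within *Trem-2*-/- and 0.992 to 0.993 between genotypes. *Trem2* itself fell in the arrays labelled *Trem-2*-/-, which gave 7.64 and 7.45 where WT gave 9.58 and 9.74. Of the alveolar macrophage markers, 9 of 10 were measured, and 8 of these lay above the upper quartile on all arrays. Their mean ranged from 10.77 to 10.78 in WT and from 10.81 to 10.86 in *Trem-2*-/- AM. *Car4*, a carbonic anhydrase of AM, rose by 0.90 on the log2 scale and was the only one of the 9 to pass, while 3 of them lay higher and 3 lower without overlap between the genotypes. Genes listed as markers of other cells moved as well. These lists do not show which cells held the RNA. For C1q the study reports more protein inside *Trem-2*-/- AM by flow cytometry. Of 8 measured markers of interstitial or monocyte-derived macrophages 6 rose, namely *Pf4* by 1.98, *Apoe* by 1.67, *C1qa* by 1.19, *Ccr2* by 0.81, *Cx3cr1* by 0.67 and *Cd14* by 0.56. *Lyve1* and *Folr2* did not, with differences of -0.09, lower without overlap, and -0.07. *Apoe* and *Cd14* lay above the upper quartile on all arrays, those of WT included. The mean of that list was at most 7.04 on the WT arrays and 7.84 to 7.88 on the *Trem-2*-/- arrays. Among 9 lung epithelium markers *Cldn18* rose by 1.23 and *Scgb1a1* by 0.91, and without overlap 5 were higher and 3 lower. The mean of that list went from 6.55 to 6.56 in WT to 6.95 to 6.99 in *Trem-2*-/- AM. Limma called none of 6 neutrophil, 8 dendritic cell, 4 B cell and 8 T and NK cell markers, with an unadjusted p below 0.05 for 1 neutrophil and 2 dendritic cell markers. Over all genes tested, 17.4% were higher and 25.4% lower without overlap. An adjusted p below 0.05 from limma was reached by 0.567%, and an unadjusted p below 0.05 by 11.5%. In bulk RNA a change in the number of cells of a type and a change in RNA per cell cannot be told apart.

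In total 3 of the 29 genes passed limma's test at an adjusted p below 0.05, against 0.567% of all genes tested, and such genes are termed called. *H2-M2* fell, and *H2-Q5* and *H2-T10* rose. A share of 0.431% of all genes passed with higher and 0.135% with lower values in *Trem-2*-/- AM. These 3 genes had been named as the leading genes when the list was drawn up from the same arrays, so the count is a description of them and not an independent finding. The median log2 fold change of the 29 genes was 0.04, beside -0.02 over all genes, and 19 differences were positive and 10 negative. The 2 arrays of one genotype lay wholly above those of the other for 11 genes higher in *Trem-2*-/- AM and 4 genes lower, and overlapped for 14. Over all genes 17.4% were higher and 25.4% lower without overlap, 42.8% in all. An unadjusted p below 0.05 was reached by 8 of the 29 and by 11.5% of all genes. With 2 arrays against 2, exact permutation of 1 gene's values gives no p under 0.333, so the calls rest on limma's pooling of the spread over all genes. Nothing in the labels says that the pools of a genotype were separate groups of animals, and the p-values measure only how far these arrays differ, which can be technical variation.

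**Figure D1:**
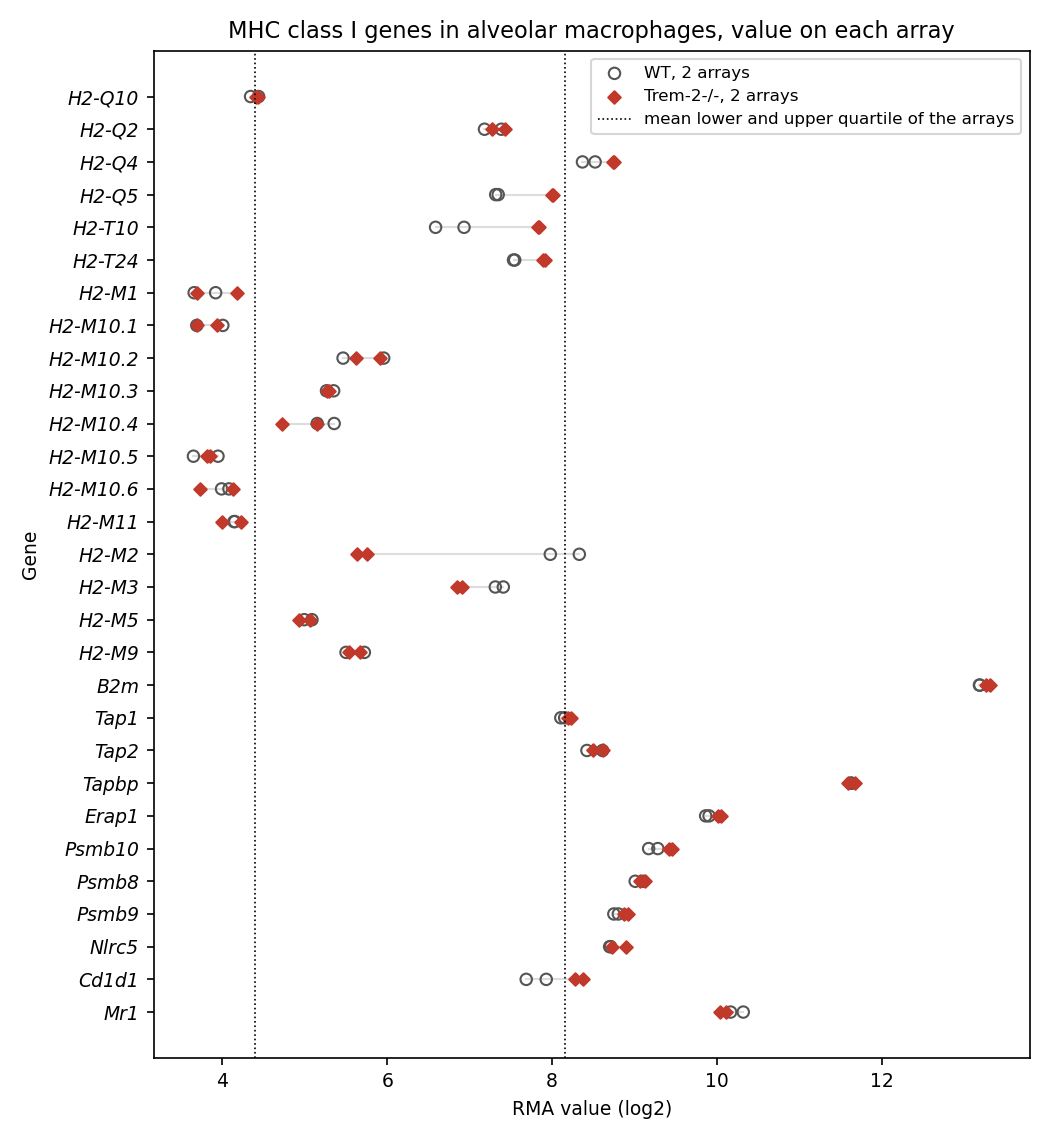
RMA log2 value (x axis) of each of the 29 genes (y axis) on the 2 WT arrays (open circles) and the 2 *Trem-2*-/- arrays (filled diamonds), with dotted lines at the mean lower and upper quartile of the arrays. *H2-M2* lay at 8.33 and 7.98 on the WT arrays and at 5.64 and 5.75 on the *Trem-2*-/- arrays, the widest gap of the 29 genes; levels of different genes are not comparable.

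The promoters of *H2-M2*, *H2-M3* and *B2m* are printed here because the first had the largest fall among the 29 genes, the second the next largest difference among the M genes, and the third encodes the chain that all the heavy chains share. The windows run from 250 bases before to 50 bases after the annotated start in RefSeq, assembly GRCm38.p6, and are written in the direction of transcription. Capitals mark the letters CCAAT or ATTGG (the same motif on the other strand, bound by NF-Y), the interferon-stimulated response element (ISRE, 10 letters with 2 free positions) and TGACGC (the core of the site that CREB and ATF factors bind in class I promoters). The window of *H2-M2* is chr17:37483505-37483804 on the minus strand, that of *H2-M3* is chr17:37269984-37270283 on the plus strand and that of *B2m* is chr2:122147437-122147736 on the plus strand.
H2-M2: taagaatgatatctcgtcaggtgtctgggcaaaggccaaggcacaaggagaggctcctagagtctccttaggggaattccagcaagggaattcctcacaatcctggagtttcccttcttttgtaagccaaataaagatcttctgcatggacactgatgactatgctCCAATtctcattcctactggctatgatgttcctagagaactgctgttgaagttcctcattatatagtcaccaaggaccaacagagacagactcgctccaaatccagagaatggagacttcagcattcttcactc
H2-M3: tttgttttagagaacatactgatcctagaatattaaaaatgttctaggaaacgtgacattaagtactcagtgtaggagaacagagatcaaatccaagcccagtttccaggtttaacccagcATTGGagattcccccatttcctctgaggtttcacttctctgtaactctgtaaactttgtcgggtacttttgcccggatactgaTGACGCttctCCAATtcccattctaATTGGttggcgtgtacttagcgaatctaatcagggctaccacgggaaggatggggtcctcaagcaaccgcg
B2m: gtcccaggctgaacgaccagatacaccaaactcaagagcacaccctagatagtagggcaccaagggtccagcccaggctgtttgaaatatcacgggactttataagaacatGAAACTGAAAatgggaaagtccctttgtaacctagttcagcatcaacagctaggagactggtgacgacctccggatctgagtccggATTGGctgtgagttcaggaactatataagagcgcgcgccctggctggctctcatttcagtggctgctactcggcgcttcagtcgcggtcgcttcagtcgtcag

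A RefSeq window was at hand for 23 of the 29 genes, and not for *H2-Q5*, *H2-T10*, *H2-T24*, *Cd1d1*, *Tap2* or *Nlrc5*. The letters CCAAT, on either strand, stood in the windows of 17 of these 23 genes (73.9%) and in 37.4% of the 32851 windows of all genes. They were present in 13 of 15 heavy chain genes, and in 12 of these the match began between 90 and 65 bases before the start site. This stretch was not fixed beforehand, and no share of all windows is given for it. *H2-M2* has its CCAAT at position -84. In *H2-M3*, ATTGG begins at -129 and -21 and CCAAT at -36, outside that stretch. The ISRE was found in *B2m*, at -139, and in *Erap1*, or 8.7% of the 23 genes against 3.44% of all windows. TGACGC was found in *H2-M3*, at -46, and in *H2-Q4*, on the other strand and 30 bases after the start site. That was 8.7% of the 23 genes, against 7.4% of all windows. None of these motifs contains another. *H2-M2* and the H2-M10 genes carry the CCAAT of this stretch. Any relation between the motif and the differences was not tested. A match of letters is a description and not a binding site.

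*H2-M2*, a nonclassical heavy chain gene and the last of the M genes in gene order, was the gene of the list that differed most. Its log2 values were 8.33 and 7.98 in WT AM and 5.64 and 5.75 in *Trem-2*-/- AM. Both *Trem-2*-/- arrays were thus far below both WT arrays, and the means were 8.15 ± 0.25 and 5.70 ± 0.08 (SD, n = 2 arrays each). The log2 fold change was -2.46 (standard error 0.13, 95% interval -2.77 to -2.15, adjusted p = 0.0012 from limma), a signal 5.49 times as high in WT AM, with an interval of 4.44 to 6.80. It passed in 11 of 12 alternative settings, including each fit without 1 of the arrays, and missed the threshold when all rows of the table were tested as probe sets (adjusted p = 0.065 from limma).

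*H2-Q5*, annotated in RefSeq as a transcribed pseudogene of the Q region, rose. It gave 7.32 and 7.35 in WT AM and 8.00 and 8.01 in *Trem-2*-/- AM. The arrays of a genotype differed by little, and the genotypes did not overlap. The log2 fold change was 0.67 (standard error 0.07, 95% interval 0.50 to 0.84, adjusted p = 0.020 from limma), or 1.59-fold. The call passed in 7 of 12 alternative settings but in none of the 4 fits without 1 array, where the adjusted p from limma was 0.118 without WT replicate 1 and 0.0995 without WT replicate 2. Without *Trem-2*-/- replicate 1 it was 0.155, and 0.174 when replicate 2 was left out.

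*H2-T10*, a further transcribed pseudogene by RefSeq in C57BL/6, is a close relative of *H2-T22*, whose product is bound by receptors of gamma delta T cells. Its values were 6.93 and 6.59 in WT AM and 7.85 and 7.83 in *Trem-2*-/- AM. The WT arrays differed from each other (SD 0.24) more than the *Trem-2*-/- arrays did (SD 0.01), and both lay below the latter. The log2 fold change was 1.08 (standard error 0.12, 95% interval 0.78 to 1.37, adjusted p = 0.026 from limma), or 2.11-fold. It passed in 8 of 12 alternative settings. Of the fits without 1 array it passed without WT replicate 1 (adjusted p = 0.019 from limma). It missed the threshold without WT replicate 2, at 0.052, and without *Trem-2*-/- replicate 1 or replicate 2, at 0.161 and 0.174.

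**Figure D2:**
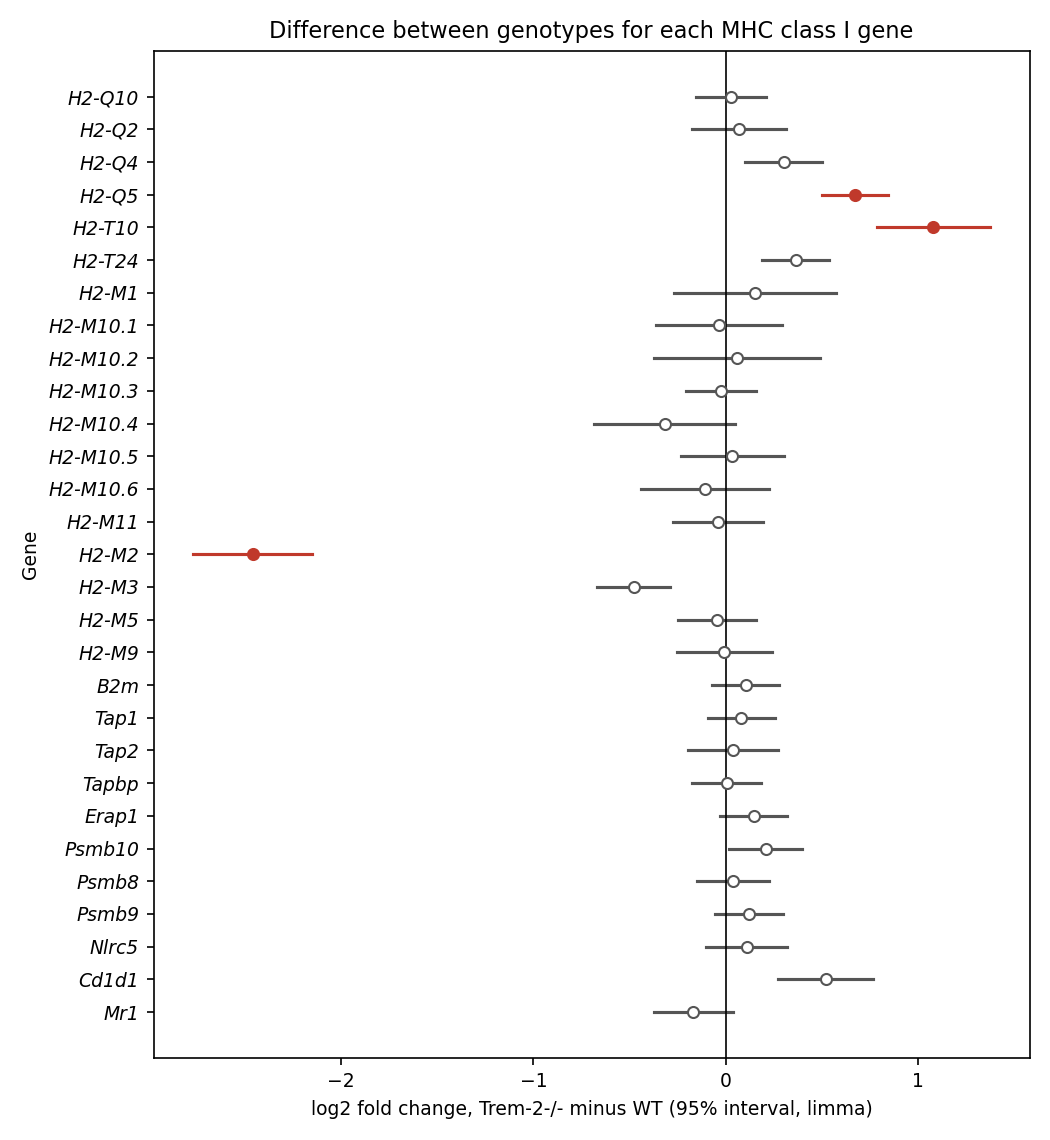
Log2 fold change of each of the 29 genes, *Trem-2*-/- minus WT (x axis), with the 95% interval from limma as a bar. Filled points mark the 3 genes with an adjusted p below 0.05, *H2-M2* at -2.46, *H2-Q5* at 0.67 and *H2-T10* at 1.08; the other 26 lie between -0.48 and 0.52.

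The remaining 26 genes did not pass. Of these, *H2-M3* came closest. Its product presents N-formylated peptides, a signature of bacteria and mitochondria, to CD8+ T cells. It gave 7.31 and 7.41 in WT AM and 6.85 and 6.91 in *Trem-2*-/- AM, with no overlap between the genotypes. The log2 difference of -0.48 (standard error 0.08, 95% interval -0.67 to -0.29) had an adjusted p of 0.083 from limma. It passed where limma used an intensity trend and a robust variance (0.0063), where 3.35% of all genes did, and among genes with a mean log2 value of at least 6 (0.012), where 3.31% did.

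*H2-T24*, a T region gene, gave 7.55 and 7.53 in WT AM and 7.92 and 7.89 in *Trem-2*-/- AM, a log2 difference of 0.36 (standard error 0.07, adjusted p = 0.138 from limma). The genotypes did not overlap. It was called by significance analysis of microarrays (SAM), the test the study names, which called 0.963% of all genes, and also with the intensity trend (0.018) and the filter (0.024). *H2-Q4*, a Q region gene, gave 8.52 and 8.37 in WT AM and 8.75 and 8.74 in *Trem-2*-/- AM. Its log2 difference of 0.30 (standard error 0.08) had an adjusted p of 0.271 from limma and passed only with the intensity trend, at 0.035. *H2-Q2* overlapped between the genotypes, with a difference of 0.07, and so did *H2-Q10*, which encodes a class I molecule secreted by the liver, with 0.03.

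Of the 12 M genes, 9 belong to the group described from sensory neurons of the vomeronasal organ, namely *H2-M1*, *H2-M9*, *H2-M11* and the 6 *H2-M10* genes. None passed the test in limma or SAM, and none had an unadjusted p below 0.05. In 8 of the 9 the genotypes overlapped, the log2 differences ran from -0.32 (*H2-M10.4*) to 0.15 (*H2-M1*) with a median of -0.02, and the adjusted p-values lay between 0.495 and 0.985 in limma. *H2-M10.4* was the exception to the overlap, at 5.151 and 5.36 in WT AM and 5.147 and 4.73 in *Trem-2*-/- AM. *H2-M1*, *H2-M10.1*, *H2-M10.5*, *H2-M10.6* and *H2-M11* lay below the lower quartile on all 4 arrays. *H2-M5*, the remaining M gene, differed by -0.05 and overlapped between the genotypes. Over the 15 heavy chain genes that were not called the median difference was -0.01.

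The classical heavy chains had no probe set of their own. Both rows that list *H2-K1* also list *H2-D1*, and no row lists *H2-L*. The first of these gave 12.53 and 12.60 in WT AM and 12.76 and 12.70 in *Trem-2*-/- AM, a difference of 0.16. The second gave 12.19 and 12.23 against 12.49 and 12.39, a difference of 0.23. Both were higher on both *Trem-2*-/- arrays, with unadjusted p of 0.090 and 0.039 and adjusted p-values of 0.605 and 0.528 from limma over all 35557 rows. In all 7 rows were annotated jointly to several heavy chain genes. Of these 4 were higher and 2 lower without overlap, where 41.5% of all rows were without overlap in either direction. None passed limma's test over all rows, where 0.0647% did. An unadjusted p below 0.05 from limma was reached by 3, beside 11.5% of all genes in the fit over genes. The row annotated jointly to *H2-Q6* and *H2-Q8* gave 7.44 and 7.59 in WT AM and 8.61 and 8.56 in *Trem-2*-/- AM. Its difference of 1.07 (standard error 0.09, adjusted p = 0.137 from limma over all rows) was the widest of the 7 rows. In the same fit over all rows, the adjusted p from limma was 0.065 for *H2-M2*, 0.197 for *H2-Q5* and 0.262 for *H2-T10*. The row annotated jointly to *H2-T23* and the pseudogene *H2-T-ps* gave 9.55 and 9.54 in WT AM and 9.10 on both *Trem-2*-/- arrays, a difference of -0.45 (adjusted p = 0.313 from limma over all rows). *H2-T23* encodes Qa-1, which is recognised by the NKG2A receptor of NK cells. The row annotated jointly to *H2-T9*, *H2-T22* and *H2-T10* gave 9.69 and 9.89 in WT AM and 9.62 and 9.61 in *Trem-2*-/- AM. Its difference of -0.17 had the opposite sign to that of the probe set annotated to *H2-T10* alone. Heavy chain genes are near-identical over long stretches, so probes can bind transcripts of several of them, and the assignment of each difference to 1 heavy chain gene is uncertain.

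None of the 11 genes of assembly, regulation and class I-like presentation passed the test in limma or SAM, and 2 of them had an unadjusted p below 0.05. Their median difference was 0.10, with 10 positive and 1 negative, and 7 were higher and 1 lower without overlap, beside 17.4% and 25.4% of all genes. *B2m*, the light chain, gave 13.18 and 13.19 in WT AM and 13.27 and 13.31 in *Trem-2*-/- AM. Both *Trem-2*-/- values were above the WT values, and the difference of 0.10 (95% interval -0.07 to 0.28, adjusted p = 0.642 from limma) has an upper limit of a 1.21-fold higher level. *Tap1* gave 8.11 and 8.15 against 8.19 and 8.22, a difference of 0.08 (adjusted p = 0.725 from limma). *Tap2*, the other subunit of the transporter, overlapped between genotypes at 0.04, and *Tapbp*, which encodes tapasin, overlapped at 0.00. *Erap1*, which trims peptides in the endoplasmic reticulum, gave 9.90 and 9.86 in WT AM and 10.01 and 10.04 in *Trem-2*-/- AM, a difference of 0.14 (adjusted p = 0.510 from limma).

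Of the immunoproteasome subunits, which replace the constitutive catalytic subunits in immune cells, *Psmb10* (MECL-1) showed the widest gap. It gave 9.17 and 9.28 in WT AM and 9.45 and 9.42 in *Trem-2*-/- AM, a difference of 0.21 (95% interval 0.02 to 0.39, adjusted p = 0.400 from limma). *Psmb9* (LMP2) gave 8.75 and 8.80 against 8.92 and 8.87, a difference of 0.12. *Psmb8* (LMP7) overlapped, with a difference of 0.04. None of the 3 subunits passed in any alternative setting.

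*Cd1d1* and *Mr1* encode class I-like molecules outside the MHC. CD1d presents lipids to NKT cells, and MR1 presents vitamin B metabolites to mucosal-associated invariant T cells. *Cd1d1* gave 7.93 and 7.69 in WT AM and 8.37 and 8.28 in *Trem-2*-/- AM, a difference of 0.52 (standard error 0.10, adjusted p = 0.138 from limma). The genotypes did not overlap, and it passed with the intensity trend (0.0030) and the filter (0.029). *Mr1* gave 10.32 and 10.17 against 10.04 and 10.11. Both *Trem-2*-/- values were the lower ones, and the difference was -0.17 (adjusted p = 0.515 from limma), and passed in no setting.

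*Nlrc5*, the transactivator of class I genes, was the only gene of the list with more than 1 probe set. It has 19, of which the brightest gave 8.70 and 8.71 in WT AM and 8.90 and 8.72 in *Trem-2*-/- AM. The difference was 0.11 (95% interval -0.10 to 0.32, adjusted p = 0.692 from limma). Over all rows of the table, 41.5% were without overlap between the genotypes in either direction. Of all genes tested, 17.4% were higher and 25.4% lower without overlap. Of the 19 probe sets 15 were higher on both *Trem-2*-/- arrays than on both WT arrays and none was lower on both. Their differences ran from -0.04 to 0.66 with a median of 0.23. Probe sets of 1 gene share its transcripts and are not replicates. None passed over all rows, with a smallest adjusted p of 0.200 from limma. An unadjusted p below 0.05 was reached by 9 of the 19, beside 11.5% of all genes in the fit over genes. The mean of the 19 did not pass either (adjusted p = 0.300 from limma).

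**Figure D3:**
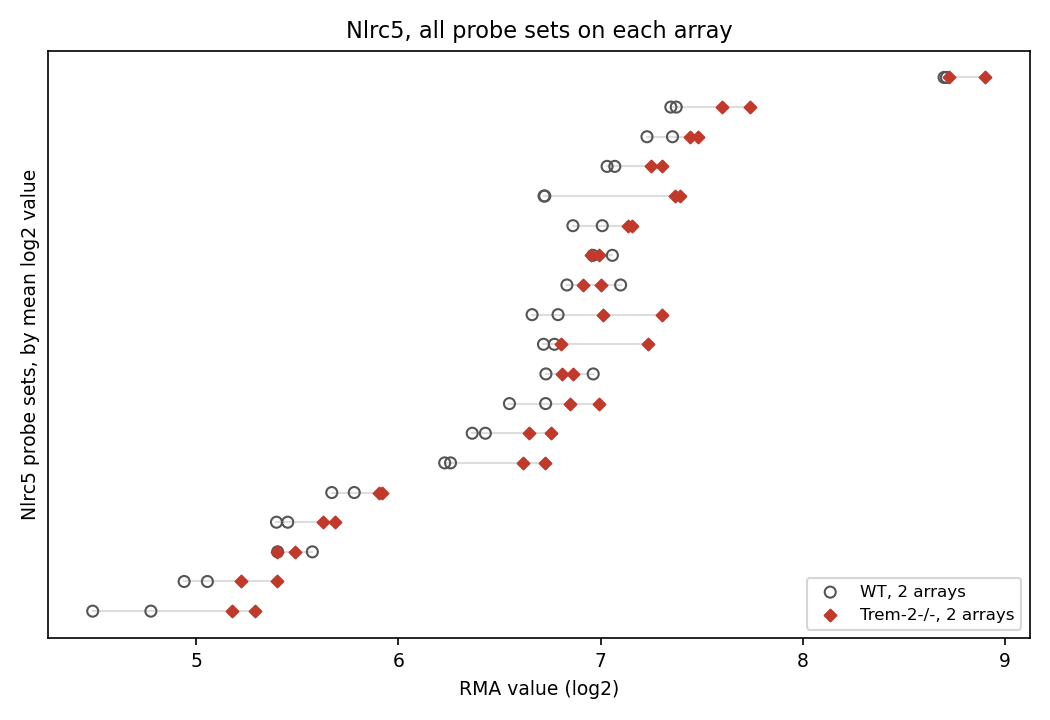
RMA log2 value (x axis) of the 19 probe sets annotated to *Nlrc5* alone, in order of their mean (y axis), on the 2 WT arrays (open circles) and the 2 *Trem-2*-/- arrays (filled diamonds). In 15 probe sets both diamonds lie to the right of both circles. Of all rows 41.5% were without overlap in either direction, and of all genes tested 17.4% were higher and 25.4% lower without overlap. The gap of the brightest, at 8.70 to 8.90, is among the smaller ones.

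Among other genes of class I presentation and its regulation, 42 of 50 listed were measured and none passed limma's test. An unadjusted p below 0.05 was reached by 7, beside 11.5% of all genes. The median difference was 0.00, and 14 were higher and 6 lower without overlap, beside 17.4% and 25.4% of all genes. The smallest adjusted p-values belonged to *Ciita*, the class II transactivator, at 0.44 (0.121), the iron regulator *Hfe* at 0.32 (0.190), the NKG2D ligand gene *Raet1d* at -0.33 (0.213) and the interferon response factor *Irf1* at 0.32 (0.266), all from limma. *Ciita* gave 5.90 and 5.83 in WT AM and 6.36 and 6.25 in *Trem-2*-/- AM, and it was called by SAM. None of the 5 loading chaperones, the 8 proteasome genes or the 4 interferon receptor genes was called in any setting.

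The called heavy chain genes were then placed in the order of genes along chromosome 17. Of 936 tested genes in that order, *Tapbp* is the first of the list at rank 402 and *H2-M2* the last at rank 565. *H2-Q5* stands at rank 492, *H2-T10* at 521 and *Trem2* at 699, with 133 tested genes between *H2-M2* and *Trem2*. In this order the called heavy chain genes are not neighbours. There are 28 tested genes between *H2-Q5* and *H2-T10* and 43 between *H2-T10* and *H2-M2*. The order leaves out rows annotated jointly to several genes, such as that of *H2-Q6* and *H2-Q8*, which was higher by 1.07. *H2-Q4*, next to *H2-Q5*, was higher by 0.30, also without overlap between the genotypes. Neither was called. Whether heavy chain genes that differed lie side by side in the Q region can therefore not be read from this order.

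The 2 tested genes on one side of *H2-M2* were olfactory receptor genes with differences of -0.11 (*Olfr108*) and -0.12 (*Olfr109*) that did not pass. On its other side *Olfr110* fell by 0.96 on the log2 scale (standard error 0.10, adjusted p = 0.020 from limma). *Olfr111*, the gene after it, gave 8.12 and 7.95 in WT AM and 3.45 and 4.01 in *Trem-2*-/- AM, below the lower quartile. Its log2 fold change was -4.31 (adjusted p = 0.00067 from limma, standard error 0.18). *H2-M2*, *Olfr110* and *Olfr111* thus form a run of 3 adjacent tested genes that were lower in *Trem-2*-/- AM. For the genes that rose, none of the 2 tested genes on each side passed. Rows with several symbols have no place in this order. Among these, the row annotated jointly to *H2-Q6* and *H2-Q8*, also of the Q region, was higher by 1.07 (adjusted p = 0.137 from limma over all rows). Next to *H2-Q5*, *H2-Q2*, *H2-Q4*, *H2-Q10* and *Pou5f1* differed by 0.07, 0.30, 0.03 and -0.08. Next to *H2-T10*, *Gm6034*, *H2-Bl*, *2410017I17Rik* and *Rpp21* differed by 0.07, -0.04, -0.07 and -0.12, and none of these 8 genes passed.

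**Figure D4:**
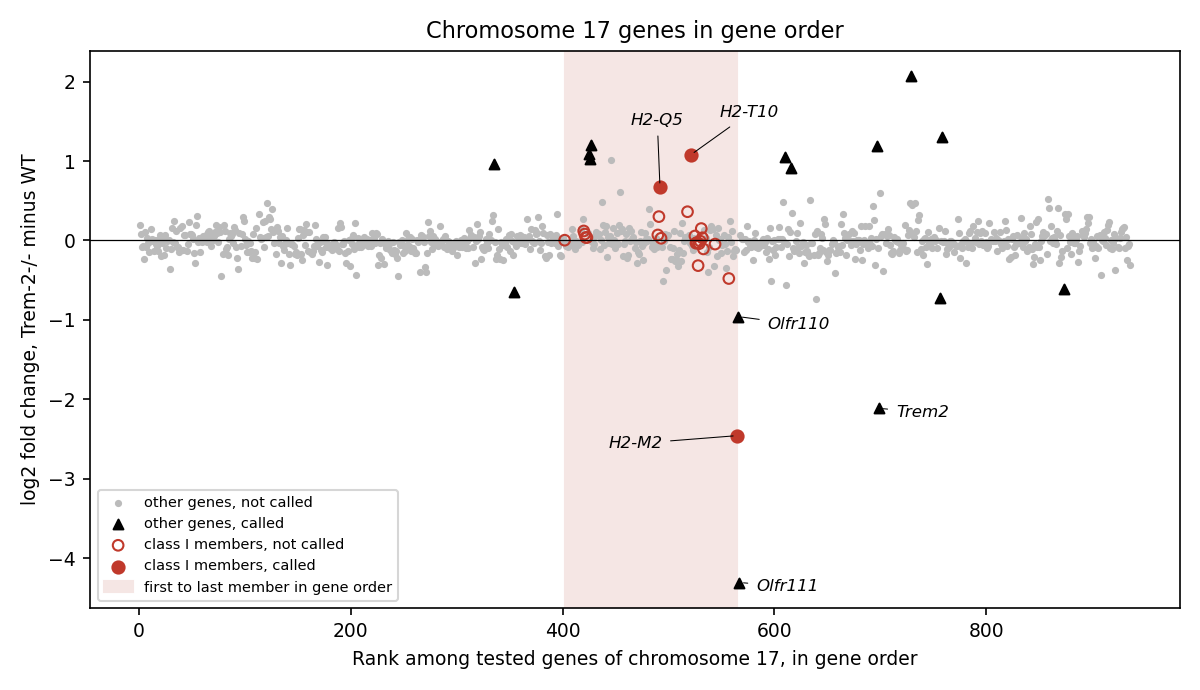
Log2 fold change, *Trem-2*-/- minus WT (y axis), of the 936 tested genes of chromosome 17 in gene order (x axis, rank and not distance). Circles mark the class I genes and triangles other called genes; *H2-M2*, *Olfr110* and *Olfr111* stand together at the end of the shaded class I stretch, at -2.46, -0.96 and -4.31, with *Trem2* at -2.11 further along.

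On chromosome 17, 18 genes were called, 11 higher and 7 lower, or 1.92% of those tested. Of the 141 genes that lie between *Tapbp* and *H2-M2* without belonging to the list, 3 were higher and none lower (2.13%), and these 3 were the MHC class II genes *H2-Ab1*, *H2-Aa* and *H2-Eb1*, which present peptides to CD4+ T cells, with log2 fold changes of 1.09, 1.02 and 1.20. Of the 772 genes outside that stretch, 6 were higher and 6 lower (1.55%), and the lower ones include the targeted *Trem2* itself. Of the 18917 genes not on chromosome 17, 75 were higher and 20 lower (0.502%). The 18 called genes of the chromosome also include the 3 called genes of the list, which were known beforehand. The 6 genes of the list off chromosome 17 (*B2m*, *Psmb10*, *Erap1*, *Nlrc5*, *Cd1d1* and *Mr1*) were all without overlap, 5 higher and 1 lower, where 42.8% of all genes were, and none was called. The mutation and the heavy chain genes share a chromosome, and DNA of another strain can stay linked to a targeted gene through backcrossing. An effect of the lost receptor and of such flanking DNA, on transcription or on the fit of a probe to an allele, cannot be told apart in these arrays, because both follow the genotype. Probe sequences were not used here. The part of the macrophage and epithelium markers that rose with the genotype in the values of *H2-Q5*, *H2-T10*, *H2-T24* and *Cd1d1* was not tested.

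**Figure D5:**
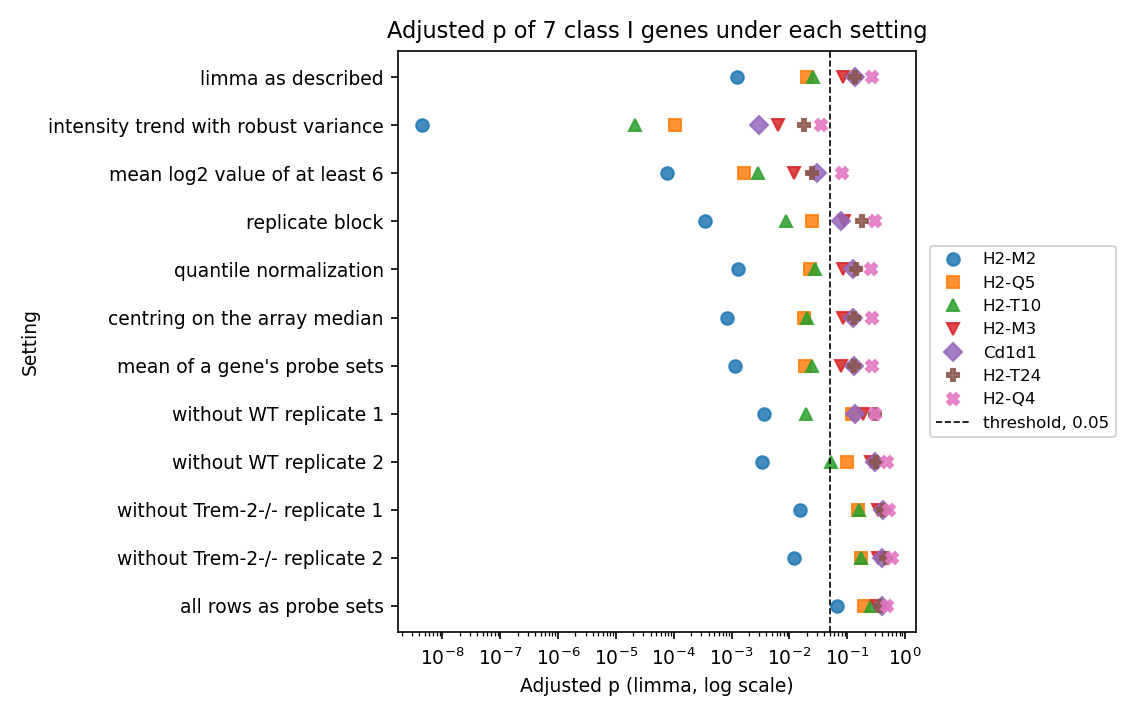
Adjusted p (x axis, log scale) of the 7 class I genes that passed the threshold of 0.05 (dashed line) in limma or in any alternative, for limma as described and 11 alternative settings (y axis); SAM gives no adjusted p per gene here and is not drawn. *H2-M2* lies left of the line in all but the last setting, where it is at 0.065, while *H2-Q5* lies right of it in every setting without 1 array.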

How the data were processed

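AM were obtained by bronchoalveolar lavage and RNA was purified with an RNeasy kit, labelled with biotin and hybridized to murine Gene 1.0 ST arrays (Affymetrix), 2 per genotype. The deposited table holds log2 values, which the authors made with RMA (background correction, quantile normalization, summary of probes). The submitters' processing notes name RMA and mm9 without versions, and the values therefore carry those steps. Scanner intensities were not used, so no detection call was at hand and only the number of arrays speaks for precision.

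Groups and replicate numbers came from the sample titles. Of 35557 rows, 23410 are listed in the platform's annotation, 21797 of them with 1 symbol and 1613 with several, and 12147 are not listed. By gene identifier 21698 were matched to RefSeq (GRCm38.p6), which served for names, gene order and promoter windows. Coordinates printed are of GRCm38.p6 and were not set against mm9. Where a gene had several probe sets (999 of 19946 genes), the brightest by mean was used.

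Genotypes were compared over all 19946 genes with limma 3.58.1 in R 4.3.3 (lmFit and eBayes, two-sided, all 4 arrays, no covariate), with Benjamini-Hochberg adjustment over all genes and a threshold of 0.05. The fit was checked on simulated data. SAM at a false-discovery rate of 5%, named in the study's methods, was written anew with all 6 assignments of the arrays and used as an alternative. The others were limma with a trend on intensity and robust variance or with replicate numbers as a block, a second quantile normalization, centring of each array on its median, restriction to genes with a mean of 6 or more, averaging over probe sets, testing every row of the table, and omission of each array in turn. Samples with the same number did not deviate together (r = -0.03 over probe sets), so numbers were not taken to pair the arrays.

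The members and all gene lists were chosen with earlier results of these data known. Named genes are every member, *Trem2*, the 2 tested genes on each side of a called member, up to 4 genes of the presentation list with the smallest adjusted p, and called cell type markers. Names outside this rule (the jointly annotated heavy chain genes, 3 class II genes, *Lyve1* and *Folr2*) were chosen after their values were seen. Protein sequences were not used here.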

Additional observations from a re-analysis of the deposited data

How the results depend on the processing

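Of the 3 called genes, *H2-M2* lost its call under 1 of 12 alternatives, *H2-T10* under 4 and *H2-Q5* under 5, and none changed direction. Over all genes limma as described called 86 higher and 27 lower, and SAM called 173 higher and 19 lower. The intensity trend with robust variance called 379 higher and 290 lower. The restriction to mean log2 values of at least 6 called 207 higher and 150 lower. Testing all rows as probe sets called 21 higher and 2 lower. Among the 29 class I genes the intensity trend called 5 higher and 2 lower. The restriction on low values called 4 of them higher and 2 lower. Testing all rows as probe sets called 0 of them higher and 0 lower, where 35557 rows entered the adjustment. There 7 of the 29 had an unadjusted p below 0.05 from limma, beside 11.5% of all genes in the fit over genes. Among the other genes of presentation SAM called 1 higher (*Ciita*), the intensity trend 3 higher and 1 lower, and the restriction on low values 2 higher. With 1 array left out, limma called 22 to 43 genes higher and 4 to 7 lower over all genes and 0 to 1 class I genes higher, while *H2-M2* passed in all 4 fits; the lone array of a genotype was assumed to vary like the others. The median difference of the 29 genes was 0.11 with the restriction on low values, which leaves fewer genes, and lay between 0.0195 and 0.104 when 1 array was omitted. The replicate block gave 98 higher and 31 lower genes overall and the same counts for the class I genes, 2 higher and 1 lower.

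The sign turned for 14 uncalled genes when 1 array was left out. The lowest and highest differences were -0.0944 and 0.39 for *H2-M1*, -0.19 and 0.12 for *H2-M10.1*, -0.19 and 0.30 for *H2-M10.2*, -0.0683 and 0.0185 for *H2-M10.3*, -0.12 and 0.18 for *H2-M10.5*, -0.31 and 0.0944 for *H2-M10.6*, -0.16 and 0.0746 for *H2-M11*, -0.11 and 0.0183 for *H2-M5*, -0.12 and 0.10 for *H2-M9*, -0.0217 and 0.0757 for *H2-Q10*, -0.0331 and 0.17 for *H2-Q2*, -0.0116 and 0.0863 for *Psmb8*, -0.0580 and 0.13 for *Tap2* and -0.0350 and 0.0413 for *Tapbp*, which also turned to -0.0205 under quantile normalization. The cause of these shifts was not tested. The number of arrays, 2 per genotype, limits what could be called, and no detection call was at hand for the 5 genes below the lower quartile.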
